A study of Homo sapiens with 6 samples.

Results

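The histone genes are described here as they appear in 6 RNA-sequencing libraries of sorafenib-resistant liver cancer cells. They were taken by name: protein-coding genes whose symbol begins with H1-, H2AC, H2BC, H3C or H4C and a number, or with an older HIST prefix. The rule matched 70 of the 38637 genes in the deposited table, and the 56 of them above 0 TPM in 3 or more libraries are described. TPM, a unit of relative transcript abundance, divides the reads of a gene by its length and scales each library to the same total. Of the 14 others, 10 were above 0 TPM in only 1 or 2 libraries, with 1 to 7 recovered reads over all 6 libraries, and H1-7, H2AC1, H2BC1 and H4C6 were listed at 0 in all of them.

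HCCLM3-SR is a sorafenib-resistant derivative of the human hepatocellular carcinoma line HCCLM3, and sorafenib is a kinase inhibitor. Every library came from these cells under 5 µM sorafenib, 3 from cells given siRNA against the circular RNA cDCBLD2 and 3 from cells given control siRNA, each for 3 days. The labels do not say whether replicates were separate cultures, so p-values measure the spread between these libraries, which may be technical. The circular RNA itself was not analysed here. Between 17582730 and 23175766 reads per library were recovered from the deposited values. The first cDCBLD2 siRNA library stood apart: entries for ribosomal RNA summed to 5246 TPM in it and to between 98.8 and 211 TPM in the 5 others, so the main counts are also given without it. Of 12 hepatocyte and liver cancer markers, KRT8 and KRT18 were abundant, with KRT8 between 2999 and 4413 TPM. AFP, APOB, SERPINA1, TTR and FGA did not pass 4.26 TPM in any library. ALB, APOA1, TF, GPC3 and EPCAM did not pass 1.58 TPM in any library.

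Cells need new histones in bulk while DNA is copied, and the replication-dependent histone genes supply them from clustered, mostly intronless genes. Their mRNAs do not normally end in a poly(A) tail: the pre-mRNA is cut just after a short stem-loop that the stem-loop binding protein SLBP holds. Replication-independent histones are made throughout the cell cycle from ordinary polyadenylated mRNAs. A library made by selecting poly(A) tails therefore holds little replication-dependent histone mRNA, apart from longer read-through forms that do carry a tail.

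The stem-loop was searched in the annotated 3′ UTRs (GENCODE release 29, GRCh38), because it is what sets the unusual 3′ end of these mRNAs. It was found in 24 of the 56 described genes. Another 26 are annotated as coding sequence alone, so that no 3′ UTR could be searched, and these include H1-2 (chr6:26055787-26056428, minus strand) and H2BC12 (chr6:27146418-27146798, minus strand). In H1-10, H1-8, H1-4, H4C3 and H2BC11 the annotated 3′ UTR held no match. The same 16-base stem-loop motif was present in 218 of 206694 annotated transcripts of all genes, histone genes included, or 0.105%. This share counts transcripts with a match anywhere in their sequence, unlike the count of genes, which was limited to 3′ UTRs. Shown are sequences of genes with a match that passed limma on TPM with the replicate block described below, or whose groups did not overlap. The form found in H3C6 alone is also shown. Capitals mark the stem-loop and lower case the 5 flanking bases on each side, 5′ to 3′ on the strand of the gene.
H4C8: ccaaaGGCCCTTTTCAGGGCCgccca
H4C5: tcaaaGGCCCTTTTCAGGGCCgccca
H2AC6: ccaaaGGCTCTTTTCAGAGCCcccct
H2AC8: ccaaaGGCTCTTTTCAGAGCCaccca
H2BC5: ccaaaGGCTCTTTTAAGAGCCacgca
H2BC7: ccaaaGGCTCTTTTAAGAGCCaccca
H2BC8: tcaaaGGCTCTTTTCAGAGCCactca
H3C6: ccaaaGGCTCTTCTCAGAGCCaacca

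The stem-loops lie at chr6:26285131-26285146 for H4C8 (minus strand), chr6:26205001-26205016 for H4C5 (plus strand), chr6:26124669-26124684 for H2AC6 (plus strand) and chr6:26158587-26158602 for H2BC5 (plus strand). Among the 24 genes with a match, 13 carried the form seen in H2AC6, 4 the form of H2BC5 and H2BC7, and 3 the form of H4C8 and H4C5. H2AC11, H3C6 and the pair H4C15 and H4C9 carried the other forms. The hexamer AATAAA, the usual signal for adding a poly(A) tail, followed the stem-loop at any distance in an annotated transcript of 15 of the 24. A longer annotated end gives more room for such a match, and no share over other transcripts was computed. In H4C8 the longest annotated 3′ UTR ran 1655 bases past the stem-loop, and in H2AC6 it ran 1128 bases past it. The deposited TPM of H4C8 gave whole reads with a length of 409 bases, that of its RefSeq transcript, and the length for H2AC6 was 519 bases.

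Of the 56 genes, 45 lie on chromosome 6 between positions 26020490 and 27893843 and 8 lie on chromosome 1. The promoters of the replication-dependent classes differ in known elements, and these were counted as letters on either strand of the window from 250 bases before to 50 bases after each start (RefSeq, GRCh38.p14; 69 windows for 64 of the 70 genes). The octamer ATTTGCAT stood in 11 of 15 H2A windows and 15 of 19 H2B windows, against 1 of 13 H3 windows, 0 of 12 H4 windows, 0 of 10 H1 windows and 1.77% of the 35116 windows of all genes. The letters CCAAT stood in all 15 H2A, all 19 H2B and all 13 H3 windows, in 8 of 10 H1 windows and in 3 of 12 H4 windows, against 34.6% of all windows. These motifs do not overlap in their letters, and a match is a description of the window only.

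The label of the gene set was checked against the genes it took in. H1-10 encodes a replication-independent linker histone, has no stem-loop in its annotated 3′ UTR and carries AATAAA there. It was also the most abundant of the 56. H1-10 measured 365, 630.1 and 620.1 TPM with cDCBLD2 siRNA and 463, 616 and 633 TPM with control siRNA, in the order of replicates 1, 2 and 3, which is kept throughout. It was lowest in the first cDCBLD2 siRNA library, and its groups overlapped. On the log2(TPM + 1) scale H1-10 differed by -0.11 (limma adjusted p = 0.79). H1-8, the linker histone of oocytes, is also replication-independent and had 0 to 3 reads per library. Of the described genes, 53 are treated here as replication-dependent. The 38 of them whose mean over the libraries reached 1 TPM are among the 40 histone genes tested.

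Together the 53 replication-dependent genes summed to 572, 500 and 561 TPM with cDCBLD2 siRNA and to 210.4, 373 and 416 TPM with control siRNA. All 3 knockdown libraries lay above all 3 controls, with means of 544 ± 38.8 and 333 ± 108 TPM (SD, n = 3 each), and the ratio of the means was 1.63. The ratio was 1.59 without the first knockdown library and 1.38 without the first control library. No test was run on these sums. In bulk libraries, fewer cells of one state and less RNA per cell cannot be told apart.

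No histone gene passed an adjusted p of 0.05 in limma's test without a block, in either direction, where 0.25% of the 13980 genes tested were called higher and 0.629% lower. At an unadjusted p under 0.05, 3 of the 40 were higher (H1-2, H2BC8 and H4C5) and 0 lower, against 6.78% of all genes higher. The log2 fold change was above 0 for 34 of the 40, against 37.6% of all genes tested. Its median was 0.35 over the 40 and 0.43 over the 38 replication-dependent genes, against -0.08 over all genes. The groups did not overlap for 5 of the 40 genes, all higher with cDCBLD2 siRNA, against 9.58% of all genes higher in this way, and for 0 of the 40 lower, against 22.3% of all genes. By limma-voom on the recovered reads, 0 of 25 histone genes passed, where 3.02% of all genes did, and 6 of 25 were higher at an unadjusted p under 0.05, against 11.7% of all genes.

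The replicate numbers of the labels were then used as a block, which compares each knockdown library with the control of the same number. In this fit 7 of the 40 histone genes passed an adjusted p of 0.05, all higher with cDCBLD2 siRNA, where 9.94% of all genes tested were called higher. None was lower, where 25% of all genes were called lower. The 7 were H4C8, H4C5, H2AC21, H2BC5, H1-2, H2AC6 and H2AC20. H4C8, H4C5 and H2AC21 also had a log2 fold change over 1, which 0.458% of all genes reached in the same fit. H2AC21 reached the mean of 1 TPM needed for testing only through its knockdown libraries, so its call follows in part from that limit. In fits with no block that left out 1 library, the log2 fold change of H4C8 was 0.81 without the first control library, and those of H4C5 and H2AC21 were 0.84 and 0.50 without the first knockdown library. With voom and the block, 8 of 25 passed, all higher, where 17.5% of all genes were called higher. These 8 held H4C8, H4C5, H2BC5, H1-2 and H2AC6 and also H2BC8, H2BC12 and H2BC18, but not H2AC20, and H2AC21 had too few reads to enter that fit.

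**Figure D1:**
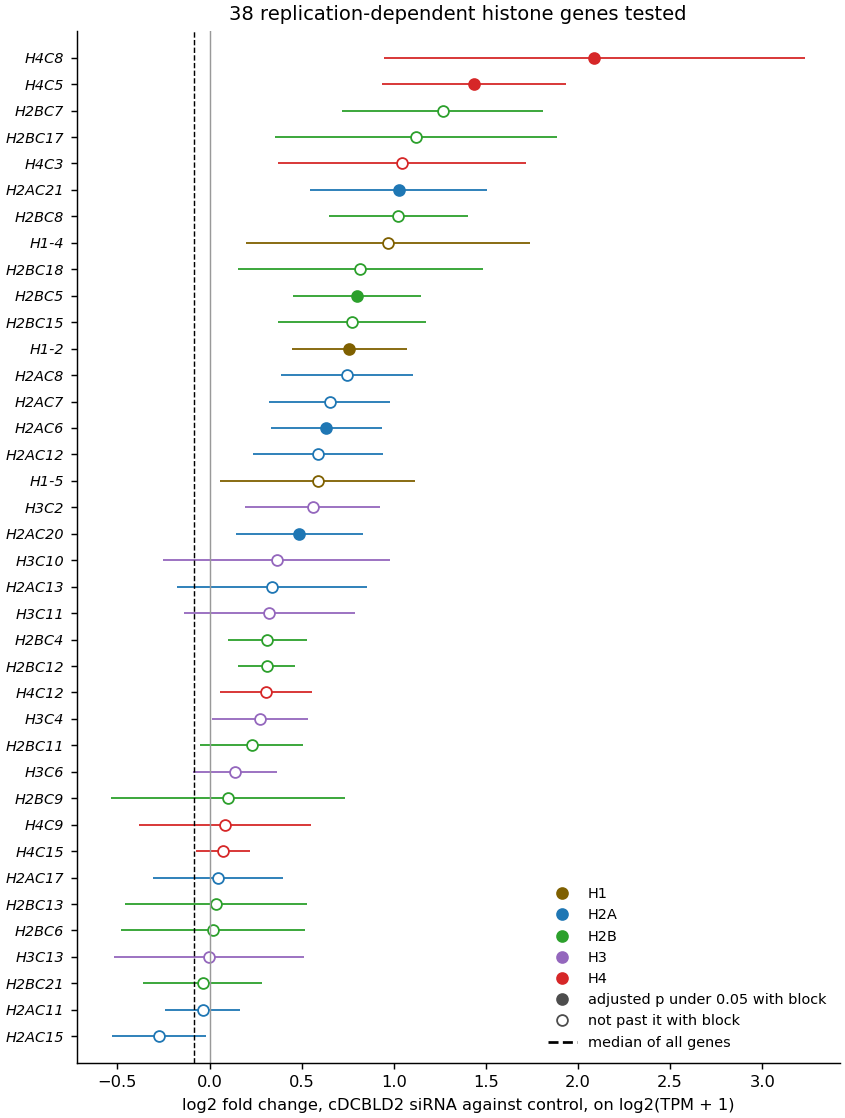
Log2 fold change of the 38 replication-dependent histone genes tested, cDCBLD2 siRNA against control siRNA on the log2(TPM + 1) scale (points, n = 3 libraries a group; bars, standard error of the fit without a block), coloured by histone class. Filled points are the 7 genes past an adjusted p of 0.05 with the replicate block; 34 of the 38 lie above 0 and the dashed line is the median of all genes, -0.08.

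The linker histones of the H1 class bind the DNA between nucleosomes. H1-2, the most abundant replication-dependent member of the class, measured 73, 98.4 and 101 TPM with cDCBLD2 siRNA and 31.6, 63.2 and 72.8 TPM with control siRNA. The groups did not overlap, and in each group the first library was the lowest. Its log2 fold change was 0.76 (SE 0.31, limma adjusted p = 0.187, with the block adjusted p = 0.0132), and the difference within replicate numbers was 1.18, 0.63 and 0.46. Without the first control library its log2 fold change was 0.40. H1-2 rested on 370, 678 and 644 reads against 156, 371 and 426 reads. H1-4 measured 11.7, 2.16 and 0.435 TPM with cDCBLD2 siRNA and 1.13, 0.316 and 1.75 TPM with control siRNA. H1-5 measured 3.8, 0.399 and 0.43 TPM with cDCBLD2 siRNA and 1.12, 0.156 and 0.157 TPM with control siRNA. For both, the first knockdown library was far above the 5 others, which overlapped between groups. Neither passed with the block (limma adjusted p = 0.279 for H1-4 and 0.101 for H1-5).

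H2A pairs with H2B, and 2 such pairs complete each nucleosome. H2AC6 measured 44.7, 56.4 and 54.8 TPM with cDCBLD2 siRNA and 19.7, 45.6 and 39.7 TPM with control siRNA. Its groups overlapped by 1 library, the first knockdown library lying just under the second control, yet in each replicate number the knockdown was higher. The log2 fold change was 0.63 (SE 0.30, limma adjusted p = 0.234, with the block adjusted p = 0.0333). Without the first control library it was 0.28. H2AC8 measured 5.63, 5.47 and 8.72 TPM against 1.58, 4.65 and 5.1 TPM in the controls, with groups that did not overlap, a log2 fold change of 0.74 and limma adjusted p = 0.239 (0.0513 with the block). H2AC20, in the chromosome 1 cluster, measured 13.4, 6.23 and 5.78 TPM with cDCBLD2 siRNA and 7.8, 4.79 and 4.04 TPM with control siRNA. Its groups overlapped, but its differences within replicate numbers were all above 0, at 0.71, 0.32 and 0.43 (limma adjusted p = 0.0222 with the block, 0.403 without). H2AC20 did not pass in the other fits with the block (limma-voom adjusted p = 0.0644, limma with the GC offset adjusted p = 0.17), and without the first knockdown library its log2 fold change was 0.14 where it had been 0.49. H2AC21, its neighbour on the opposite strand, measured 4.64, 0.854 and 0.919 TPM with cDCBLD2 siRNA and 0.895, 0 and 0.251 TPM with control siRNA. It rested on 16, 4 and 4 reads with cDCBLD2 siRNA and 3, 0 and 1 reads with control siRNA, and its call with the block (limma adjusted p = 0.0203) rests on counts this low. H2AC21 averaged 2.14 TPM in the knockdown libraries and 0.38 TPM in the controls, so the controls alone would not have brought it into the test.

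The other H2A genes tested were low and overlapped between groups. H2AC11 measured 4.97, 3.44 and 3.48 TPM against 3.01, 4.29 and 5.06 TPM in the controls. H2AC7 measured 5.09, 2.7 and 2.02 TPM against 0.872, 2.44 and 1.71 TPM in the controls. H2AC17 measured 4.74, 1.09 and 2.11 TPM against 2.13, 2.05 and 2.56 TPM in the controls. In H2AC7 and H2AC17 the first knockdown library was the highest of the 6. H2AC13 measured 4.37, 1.93 and 1.62 TPM against 0.299, 2.26 and 3.78 TPM in the controls. H2AC12 measured 1.89, 1.86 and 0.75 TPM against 1.62, 0.272 and 0.273 TPM in the controls. H2AC15 measured 0.872, 1.07 and 0.461 TPM against 0.897, 2.01 and 0.755 TPM in the controls. H2AC15 had the lowest log2 fold change of the 40 genes, -0.27 (limma adjusted p = 0.524, with the block 0.241), and its span lies within that of H2BC15 on the other strand, so reads of these genes may be shared.

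H2BC12 was the most abundant replication-dependent gene of all. It measured 139, 114 and 111 TPM with cDCBLD2 siRNA and 79.9, 117 and 98.4 TPM with control siRNA. The groups overlapped, and the log2 fold change was 0.31 (SE 0.15, limma adjusted p = 0.254, with the block 0.174). H2BC5 measured 29.1, 39.2 and 45.8 TPM with cDCBLD2 siRNA and 12.1, 24 and 31.7 TPM with control siRNA. As in H1-2, the first library of each group was the lowest, and the knockdown was higher in each replicate number, by 1.19, 0.69 and 0.52 on the log2 scale. The log2 fold change of H2BC5 was 0.80 (SE 0.34, limma adjusted p = 0.202, with the block 0.0109). Without the first control library it was 0.43. H2BC8 measured 10.3, 7.6 and 8.88 TPM with cDCBLD2 siRNA and 1.82, 3.82 and 7.4 TPM with control siRNA, without overlap, and did not pass in either limma fit on TPM (log2 fold change 1.02, limma adjusted p = 0.156, with the block 0.0598). With voom and the block H2BC8 (limma-voom adjusted p = 0.0435), H2BC12 (limma-voom adjusted p = 0.0414) and H2BC18 (limma-voom adjusted p = 0.046) passed. Without the first control library the log2 fold change of H2BC12 was 0.17 and that of H2BC8 was 0.63, and without the first knockdown library that of H2BC18 was 0.01.

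In 12 of the 13 H2B genes tested the first knockdown library was the highest of the 6, H2BC5 being the exception. H2BC21 measured 18, 7.87 and 9.04 TPM with cDCBLD2 siRNA and 8.27, 13.9 and 12.2 TPM with control siRNA. H2BC21 was above its control in replicate number 1 and below it in the other two, and its log2 fold change was -0.04. H2BC15 measured 14.6, 6.27 and 5.48 TPM with cDCBLD2 siRNA and 2.74, 4.14 and 6.68 TPM with control siRNA. H2BC11 measured 9.31, 4.2 and 4.52 TPM against 4.32, 4.15 and 5.72 TPM in the controls. H2BC7 measured 10.4, 2.02 and 2.9 TPM against 0.313, 1.58 and 1.85 TPM in the controls. H2BC7 did not overlap between groups, but its knockdown libraries held 34, 9 and 12 reads, and it did not pass (limma adjusted p = 0.202, with the block 0.141). H2BC18 measured 11.2, 0.898 and 1.72 TPM against 1.39, 0.819 and 1.64 TPM in the controls. H2BC9 measured 8.11, 0.919 and 1.73 TPM against 0.963, 2.7 and 4.32 TPM in the controls. H2BC17 measured 9.88, 1.82 and 0.245 TPM against 0, 0.800 and 1.07 TPM in the controls. In H2BC18, H2BC9 and H2BC17 the groups overlapped, since the other two knockdown libraries lay far below the first. H2BC13 measured 5.75, 1.41 and 0.76 TPM against 1.97, 1.38 and 2.77 TPM in the controls. H2BC6 measured 5.52, 1.81 and 0.486 TPM against 2.21, 1.85 and 1.86 TPM in the controls. H2BC4 measured 3.63, 1.92 and 2.17 TPM against 2.26, 1.75 and 1.49 TPM in the controls. In H2BC13 and H2BC6 the knockdown library of replicate 3 was the lowest of the 6.

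H3 and H4 form the tetramer at the core of the nucleosome. The 6 H3 genes tested were all low, with means between 1.37 and 5.34 TPM, and none passed in either fit. H3C10 measured 9.2, 4.8 and 3.29 TPM with cDCBLD2 siRNA and 0.915, 7.69 and 6.17 TPM with control siRNA. H3C2 measured 7.34, 2.7 and 2.68 TPM against 1.45, 2.68 and 2.93 TPM in the controls. H3C4 measured 3.54, 2.72 and 3.04 TPM against 1.26, 3.19 and 3.06 TPM in the controls. In each of these the first control library was the lowest and the first knockdown library the highest. H3C6 measured 2.3, 1.85 and 2.83 TPM against 1.21, 2.49 and 2.5 TPM in the controls. H3C13 measured 2.46, 1.81 and 0.487 TPM against 1.58, 0.266 and 3.46 TPM in the controls. H3C11 measured 4.02, 0.634 and 0.683 TPM against 0.886, 1.49 and 0.497 TPM in the controls. The median log2 fold change of the 6 was 0.30, the lowest of the 5 classes, and the difference between classes was not tested.

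All human H4C genes shown here encode the same H4 protein, so their transcripts differ only by silent bases in the coding sequence and by sequence outside it. H4C8 had the largest log2 fold change of the 40 genes and also the largest standard error. It measured 35.6, 88.5 and 155 TPM with cDCBLD2 siRNA and 2.17, 29.8 and 66.9 TPM with control siRNA, from 101, 341 and 556 reads and 6, 98 and 219 reads. The replicates of each group were spread widely and the groups overlapped, but the knockdown was higher in each replicate number, by 3.53, 1.54 and 1.20 on the log2 scale. The log2 fold change was 2.09 with a standard error of 1.14 (limma adjusted p = 0.29), and with the block the adjusted p was 0.0195. Without the first control library, which held 6 reads of H4C8, the log2 fold change was 0.81. H4C5 measured 13.6, 3.09 and 3.33 TPM with cDCBLD2 siRNA and 1.44, 1.81 and 0.909 TPM with control siRNA. The groups did not overlap, and the first knockdown library lay far above the other two. The log2 fold change of H4C5 was 1.44 (SE 0.50, limma adjusted p = 0.14, with the block 0.0359). Without that library it was 0.84 and the only histone call (limma adjusted p = 0.0333), where 4.64% of all genes were called higher, from 12 and 12 reads against 4, 6 and 3.

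The other H4 genes did not pass in either fit. H4C3 measured 12.1, 3.93 and 1.41 TPM with cDCBLD2 siRNA and 0.366, 2.77 and 2.47 TPM with control siRNA. H4C12 measured 1.86, 3.29 and 4.13 TPM against 1.92, 2.9 and 1.94 TPM in the controls. H4C9 measured 4.36, 2.67 and 0.575 TPM against 1.12, 2.2 and 2.83 TPM in the controls. H4C3 and H4C9 were highest in the first knockdown library, and H4C12 was highest in that of replicate 3. H4C15 measured 1.69, 1.7 and 1.55 TPM against 1.51, 1.23 and 1.85 TPM in the controls, with groups that overlapped, and shares its stem-loop with a near-identical neighbouring copy, H4C14. The authors' treatment of reads that map to more than 1 place is not given in the sources used here, so H4C14 and H4C15, H3C14 and H3C15, and H2AC18 and H2AC19 are uncertain as single genes.

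**Figure D2:**
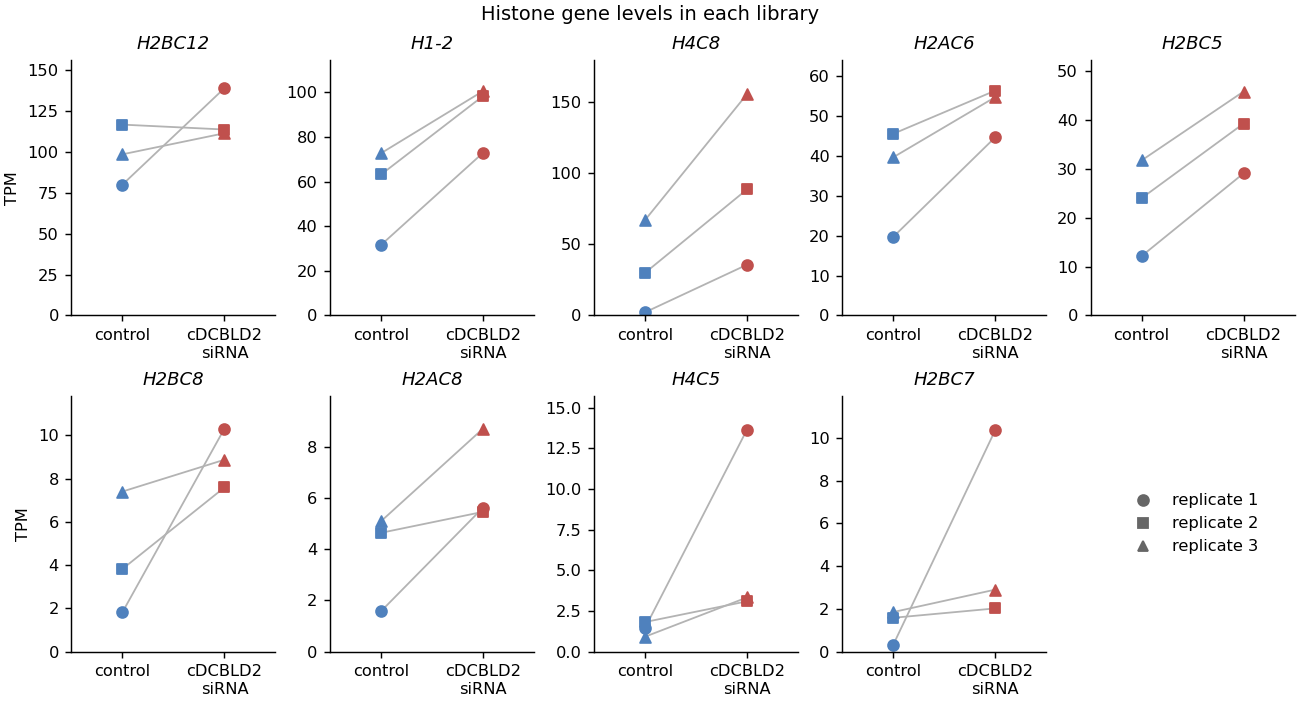
TPM of 9 replication-dependent histone genes in each library, with control siRNA and cDCBLD2 siRNA on the horizontal axis, marker shape for the replicate number and grey lines joining equal numbers. The upper panels hold the 5 genes whose mean reached 20 TPM, of which H1-2, H4C8, H2AC6 and H2BC5 were higher with knockdown at each number; the lower panels hold the 4 lower genes whose groups did not overlap.

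The 16 described genes below the limit of 1 TPM had between 5 and 33 reads over all 6 libraries and were not tested. In 13 of them the knockdown mean was the higher, and in 9 the first knockdown library was the highest. H2AC14 had 5, 11 and 3 reads with cDCBLD2 siRNA and 0 in each control library. H2AC14 met the rule for description only through its knockdown libraries, so its lack of overlap followed from that rule. No fold size is read from it. H4C4 had 3, 6 and 2 reads with cDCBLD2 siRNA and 0, 1 and 0 with control siRNA. H2AC14 and H4C4 were the only ones of the 16 without overlap between groups. No share over all genes this low was computed, so the counts in the 16 are a description only.

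The differences between knockdown and control were unequal across replicate numbers. In replicate number 1 the knockdown library was the higher for 36 of the 40 genes, in number 2 for 28 and in number 3 for 20, against 39.1%, 39.7% and 37.6% of all genes tested. The median difference of the 38 replication-dependent genes on the log2(TPM + 1) scale was 1.19, 0.17 and 0.02 in turn, against -0.08, -0.07 and -0.11 over all genes. The first knockdown library was the highest of the 6 for 27 of the 40 genes, against 15.6% of all genes tested. The limit of 1 TPM for testing was set on the mean of all 6 libraries and kept when a library was left out. H2BC17, H3C11, H2AC21, H2AC12 and H1-5 reached it only through the knockdown, with control means under 1 TPM. All of these were highest in the first knockdown library, so counts of higher genes follow in part from the limit. The first control library was the lowest for 18 of the 40, against 19.5% of all genes. Without the first knockdown library, 29 of the 40 log2 fold changes were above 0, against 39.5% of all genes, and their median was 0.14, against -0.09. Without the first control library, 29 of the 40 were above 0, against 36.5% of all genes, and their median was 0.29, against -0.09.

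Abundant and scarce genes were also read apart. A limit of 20 TPM, chosen after the levels were seen, set apart 5 replication-dependent genes, H2BC12, H1-2, H4C8, H2AC6 and H2BC5, from the 33 others. H2BC21, the next below the limit with a mean of 11.6 TPM, had 1210 reads in all, against 1110 for H2AC6. Its log2 fold change was -0.04 with all libraries and -0.37 without the first knockdown library, unlike the abundant genes. The 5 abundant genes summed to 321, 396 and 468 TPM with cDCBLD2 siRNA and 146, 279 and 309 TPM with control siRNA. They were higher with knockdown in 5, 4 and 5 of 5 genes for replicate numbers 1, 2 and 3, and their median log2 fold change was 0.76 with all libraries, 0.91 without the first knockdown library and 0.40 without the first control library, which was the lowest for all 5. The 33 scarcer genes summed to 230.4, 93.1 and 88.7 TPM with cDCBLD2 siRNA and 61.3, 88.9 and 101 TPM with control siRNA. In 26 of these 33 the first knockdown library was the highest. They were higher with knockdown in 31, 22 and 14 of 33 genes, and their median log2 fold change was 0.34 with all libraries, 0.11 without the first knockdown library and 0.31 without the first control library.

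**Figure D3:**
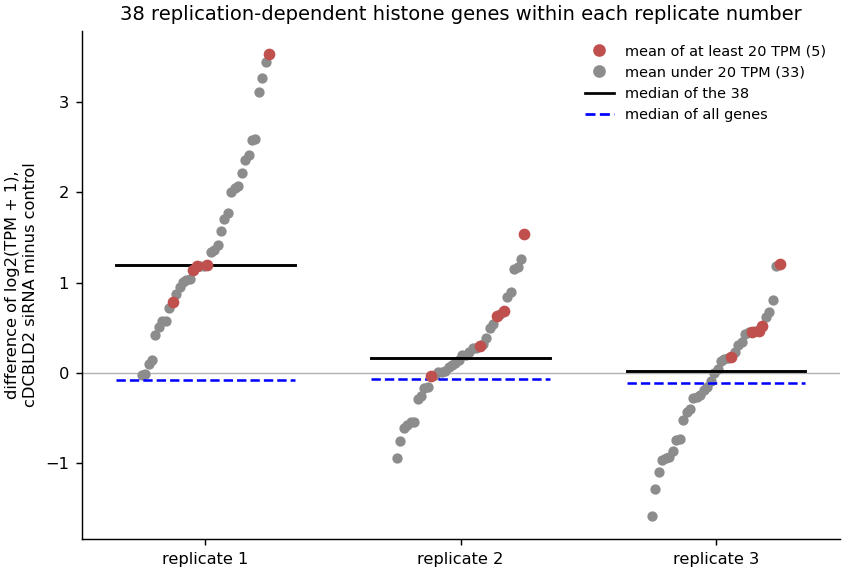
Difference of log2(TPM + 1) between cDCBLD2 siRNA and control siRNA libraries of the same replicate number for the 38 replication-dependent histone genes tested, sorted within each number, with the 5 genes of at least 20 TPM in red. The median of the 38 (solid line) was 1.19, 0.17 and 0.02 for numbers 1, 2 and 3, and that of all genes (dashed line) stayed between -0.11 and -0.07.

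Other RNAs that normally have no poly(A) tail were set beside the histone genes. Of 15 such RNAs, 7 had a mean of at least 1 TPM, and in all 7 the first knockdown library was the highest. RN7SK, which holds the elongation factor P-TEFb inactive, measured 636, 128 and 21 TPM with cDCBLD2 siRNA and 5.36, 22.9 and 50.4 TPM with control siRNA. RMRP, the RNA of RNase MRP, measured 432, 76 and 17.5 TPM with cDCBLD2 siRNA and 4.43, 7.43 and 10.2 TPM with control siRNA. RPPH1, the RNA of RNase P, measured 112, 47.9 and 3.35 TPM with cDCBLD2 siRNA and 2.17, 2.56 and 1.46 TPM with control siRNA. The first knockdown library thus held RN7SK, RMRP and RPPH1 above every other library. RN7SL1, of the signal recognition particle, measured 1394, 588 and 345 TPM with cDCBLD2 siRNA and 369, 353 and 368 TPM with control siRNA. RN7SL2, its near-identical copy, measured 1625, 673 and 685 TPM against 648, 489 and 639 TPM in the controls. The groups of RMRP, RPPH1 and RN7SL2 did not overlap, 3 of the 7, against 9.58% of all genes higher in this way. RMRP and RPPH1 passed with the block (log2 fold change 3.41, limma adjusted p = 0.0456, and 3.25, limma adjusted p = 0.0271) and not without it (0.118 and 0.137). SCARNA2 and SNORD3A stayed between 0.706 and 13.3 TPM in all libraries, and the other 8 did not reach a mean of 1 TPM.

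Entries for 18S, 28S and 45S ribosomal RNA, picked after their values were seen, summed to 5246, 183 and 211 TPM with cDCBLD2 siRNA and to 98.8, 146 and 152 TPM with control siRNA. The first knockdown library was thus also the one with the most ribosomal RNA. By their sums, the scarcer histone genes and ribosomal RNA were highest in that library, while the 5 abundant histone genes were lower in it than in the other two knockdown libraries. The part of these RNAs in the histone values was not tested. Without the first knockdown library, RMRP passed (limma adjusted p = 0.0484) and RPPH1 did not (limma adjusted p = 0.128).

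**Figure D4:**
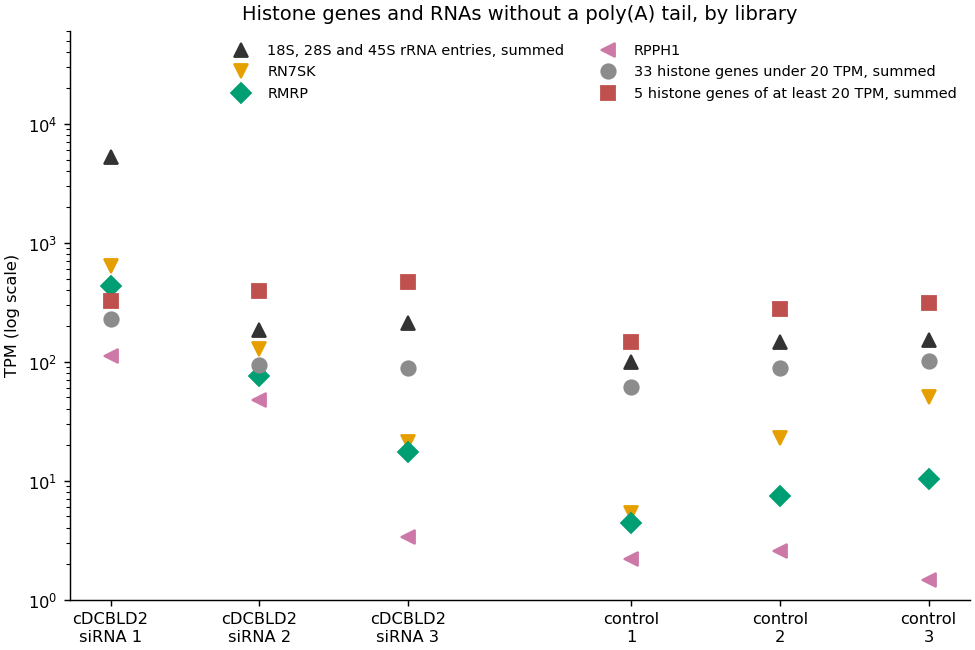
TPM on a log scale in each of the 6 libraries for ribosomal RNA entries, RN7SK, RMRP and RPPH1 and for the summed replication-dependent histone genes below and above a mean of 20 TPM. The first cDCBLD2 siRNA library holds the highest value of ribosomal RNA (5246 TPM), RN7SK, RMRP, RPPH1 and the 33 scarcer histone genes (230.4 TPM), but not of the 5 abundant ones.

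The stem-loop and the poly(A) signal were set beside these levels as a description. Of the 8 genes tested that had a stem-loop and no AATAAA after it, 7 were highest in the first knockdown library, with a median log2 fold change of 0.54. Of the 12 with AATAAA after the stem-loop, 6 were highest there, with a median of 0.25. Of the 15 with no annotated 3′ UTR, 11 were highest there, with a median of 0.49. These groups are small and were not tested against each other.

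GC content moved with the fold changes of the whole experiment, with a Spearman rho of 0.64 across the genes tested, which are not independent replicates. The transcripts of 39 of the 40 histone genes had a GC content of 39.5% to 68.6%, with a median of 53.2%, against a median of 49.1% over all genes. With each library's trend in GC content removed, 32 of the 39 log2 fold changes were above 0, against 29.8% of all genes, and their median was 0.31, against -0.12. With the GC offset and the block together, 6 of the 39 were called higher, against 5.86% of all genes, and H1-10 was called lower, against 29.4% of all genes. With the trend in transcript length removed instead, 28 of the 39 were above 0, against 35.3% of all genes, and the median was 0.21.

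Genes that act on histone mRNA and histones were read from lists fixed with earlier results of these data known. Of 23 genes for histone gene transcription and 3′ end processing, all were tested, 20 had a log2 fold change below 0, and the median was -0.23 against -0.08 over all genes. None passed without the block, 7 were lower at an unadjusted p under 0.05, against 19.4% of all genes, and with the block 12 were lower and 0 higher. SLBP, which binds the stem-loop, measured 33.4, 27.6 and 25.3 TPM with cDCBLD2 siRNA and 41.1, 36.2 and 33.9 TPM with control siRNA. NPAT, the activator that gathers at the histone gene clusters, measured 3.16, 1.08 and 1.29 TPM with cDCBLD2 siRNA and 4.44, 2.61 and 3.29 TPM with control siRNA. All 3 knockdown libraries were below the controls for SLBP but not for NPAT. SLBP fell by 0.36 on the log2 scale (limma adjusted p = 0.00884 with the block, 0.142 without) and NPAT fell by 0.70 (limma adjusted p = 0.0186 with the block, 0.202 without). The largest decreases with the block were those of TUT7, a uridylyltransferase that acts on histone mRNA during its decay, of NCBP1, a subunit of the cap-binding complex, of ERI1, the exonuclease that trims the histone stem-loop end, and of CPSF2, a subunit of the cleavage complex. TUT7 fell by 0.84 (limma adjusted p = 0.00973 with the block, 0.132 without) and NCBP1 by 0.79 (limma adjusted p = 0.00444 with the block, 0.0849 without). ERI1 fell by 0.75 (limma adjusted p = 0.00741 with the block, 0.0871 without) and CPSF2 by 0.74 (limma adjusted p = 0.00887 with the block, 0.137 without). The most abundant of the list, the Sm proteins SNRPB and SNRPF, measured 506 to 659 TPM and 304 to 481 TPM. SNRPF fell by 0.23 with the block (limma adjusted p = 0.0113), while SNRPB did not pass (log2 fold change -0.09, limma adjusted p = 0.192).

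Of 10 replication-independent variants, 8 were tested, 7 had a log2 fold change below 0 and 3 were lower with the block, none without it. The median of the 8 was -0.14, against -0.08 over all genes. H2AZ1, the variant placed at promoters, measured 774, 631 and 562 TPM with cDCBLD2 siRNA and 1007, 703 and 724 TPM with control siRNA. CENPA, the centromeric form of H3, measured 43.2, 39.6 and 31.6 TPM with cDCBLD2 siRNA and 67.1, 46.1 and 46.7 TPM with control siRNA. H3-3A, a gene for the replacement histone H3.3, measured 249, 242 and 236 TPM with cDCBLD2 siRNA and 289.5, 256 and 261 TPM with control siRNA. CENPA and H3-3A were lower without overlap between groups, 2 of the 8, against 22.3% of all genes. H2AJ, 1 of the 8, was higher without overlap, against 9.58% of all genes. It measured 91.4, 96.4 and 94.5 TPM against 85.2, 89.3 and 85.8 TPM in the controls and did not pass (limma adjusted p = 0.0804 with the block). CENPA fell by 0.46 (limma adjusted p = 0.0152 with the block, 0.172 without), H2AZ1 by 0.30 (0.0141 and 0.322) and H3-3A by 0.15 (0.0483 and 0.23). H3-3B, the other gene for H3.3 and the second most abundant of the list, measured 430.0, 395 and 383 TPM against 458, 395 and 407 TPM in the controls and did not pass. Of these 8 genes, 0 were highest in the first knockdown library.

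Of 22 histone chaperones, 21 had a log2 fold change below 0, with a median of -0.20, and 1 passed without the block. That gene was NAP1L1, a chaperone of H2A and H2B, which measured 63.7, 67.7 and 69.9 TPM with cDCBLD2 siRNA and 87.8, 91.7 and 91.9 TPM with control siRNA. NAP1L1 fell by 0.43 (limma adjusted p = 0.0495, with the block 0.00481), at the edge of the threshold, where 0.629% of all genes were called lower. Leaving out any 1 library but the first knockdown library ended this call. With the block 10 of the 22 were lower and 0 higher. ATRX, which places H3.3 in heterochromatin, fell by 1.04 (limma adjusted p = 0.00816 with the block, 0.142 without). ANP32E, which removes H2A.Z, fell by 0.88 (0.00372 and 0.108). SUPT16H, a subunit of FACT, fell by 0.79 (0.00444 and 0.0788). UBN2, of the HIRA complex, fell by 0.51 (0.0434 and 0.168). The most abundant of the list, SSRP1, the other subunit of FACT, and RBBP7 measured 200.0 to 266 TPM and 127 to 206 TPM, and RBBP7 fell by 0.36 with the block (limma adjusted p = 0.00669) while SSRP1 did not pass (limma adjusted p = 0.0567). The counts of lower genes in these 3 lists stand beside 25% of all genes called lower with the block. Their counts of log2 fold changes below 0 stand beside all genes tested, of which only 37.6% were above 0. Without the first knockdown library and with no block, 10 processing genes, 0 variants and 7 chaperones were called lower, where 19.8% of all genes were.

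Markers of other cell types were read as a check. Of 4 leukocyte markers, CD68, a lysosomal protein, was between 90.0 and 125 TPM, LYZ did not pass 5.81 TPM, PTPRC did not pass 0.411 TPM and CD3E was listed at 0. Of 3 endothelial markers, PECAM1 was between 3.63 and 5.64 TPM, and VWF and CDH5 did not pass 0.111 TPM. The 4 fibroblast markers summed to 15.2, 5.61 and 5.72 TPM with cDCBLD2 siRNA and 4.28, 1.91 and 2.92 TPM with control siRNA, and DCN and PDGFRB did not pass 0.314 TPM. COL1A1, a chain of type I collagen, measured 11.2, 3.61 and 3.64 TPM with cDCBLD2 siRNA and 3.35, 1.13 and 2.15 TPM with control siRNA, and COL3A1, the chain of type III collagen, measured 3.36, 1.78 and 1.96 TPM with cDCBLD2 siRNA and 0.783, 0.476 and 0.546 TPM with control siRNA. Both were called higher with the block (log2 fold change 1.06, limma adjusted p = 0.0132, and 1.05, limma adjusted p = 0.00787), and without the first knockdown library COL3A1 passed (limma adjusted p = 0.0218) and COL1A1 did not (limma adjusted p = 0.192). The knockdown libraries lay above the controls in this sum and the first of them was the highest, and the part of such RNA in the histone values was not tested.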

How the data were processed

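PolyA-Seq of HCCLM3-SR cells gave 6 libraries, grouped by the sample labels into 3 of the knockdown and 3 of the control. Libraries were made from total RNA with a kit for which the sources used here state no strand setting. The authors deposited 1 table of TPM values per gene, and the submitters' processing notes name fastp 0.20.1, HISAT2 2.1.0, StringTie 2.0 and the build hg38, without roles. The annotation release and the treatment of multiply mapping reads are not given in the sources used here.

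The 13980 genes averaging 1 TPM or more were tested on log2(TPM + 1) with limma 3.58.1 in R 4.3.3, with a mean-variance trend, no block and Benjamini-Hochberg adjustment over all of them. Calls used an adjusted p under 0.05. A fold change on this scale understates the change of low genes. The members and lists were chosen with earlier results of these data known. Every gene the rule matched was accounted for, each described gene averaging 1 TPM or more was named except 1 that is not reported here, and from each related list the genes past the threshold in either fit, up to 4 in a direction by size, SLBP, NPAT and the 2 most abundant were named.

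Replicate numbers come from the labels, which do not say what they stand for. Deviations from the group means of libraries with the same number correlated at 0.56, 0.34 and 0.36 over 13980 genes. Those with unlike numbers correlated at -0.45 to 0.25, the highest being 0.25 and 0.21 between numbers 2 and 3, which are thus less clearly told apart. The numbers were taken as pairs, because every pair with the same number was over 0.1. The unlike pairs of numbers 2 and 3 also passed this limit, and the pairing was judged from these same data. Values from the blocked fit therefore stand next to the results it changes.

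Whole reads were recovered from the TPM values: whole numbers were found, within 0.002 reads, for 99.994% of the 17285 genes that no library lists at 0, and one read in a gene of 1000 bases is worth 0.106 to 0.148 TPM. Where no RefSeq length fixed the scale, reads are lower bounds. They cover counting error only, and limma-voom on them was run for genes with at least 10 reads in 3 libraries. Alternatives were another scaling, other filters, a pseudocount of 0.1, protein-coding genes alone, GC and length offsets and leaving out each library. Fits were also run on simulated reads that held no replicate effect and changes only in well-covered genes. That run cannot speak to calls with the block or to scarce genes.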

Additional observations from a re-analysis of the deposited data

How the results depend on the processing

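The replicate block changed the most. Histone genes called higher went from 0 to 7 with the replicate block, 6 with the GC offset and block and 8 with voom and block; those called lower went from 0 to 1, H1-10, with the GC offset and block alone. Leaving out 1 library gave 0 to 1 higher. Of 647 single values of the 40 genes under 17 alternatives, 624 kept their side of the threshold, 22 of the 23 others passed with a block, and 0 called values reversed. All genes called went from 123 to 4891 with the replicate block, 4638 with the GC offset and block, 454 with voom, 5715 with voom and block, 394 among protein-coding genes, 5 at a mean of at least 0.1 TPM and 4 with no filter, and to between 0 and 3420 on leaving out 1 library. The 3420 came without the first knockdown library, and 0 without any 1 of the other libraries. The log2 fold change was above 0 for 38 of 40 histone genes with upper-quartile scaling, against 47% of all genes, and for 24 of 25 with voom, against 50.1%. Both shares over all genes are higher than the 37.6% of the main fit. Calls went from 0 to 3 of the variants with the replicate block (5 with GC offset and block, 3 with voom and block), from 0 to 12 of the processing genes (14 and 11) and from 0 to 2 of the RNAs without a tail (1 and 5). Chaperone calls went from 1 to 10 (14 and 11), and to 0 with upper-quartile scaling, the GC or length offset, the lower or no filter, or voom. Leaving out 1 library gave 0 to 10 calls of processing genes, 0 to 7 of chaperones and 0 to 1 of RNAs without a tail. The ratio of the summed TPM of all described histone genes, 1.15, was 1.63 for the replication-dependent genes, 1.34 without the most abundant gene and 1.03 to 1.26 on leaving out 1 library. The cause of these changes was not tested. Depth limits the scarce genes: the 16 described but untested had at most 33 reads over all libraries.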
